A study of Homo sapiens with 2 samples.

Results

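The 36 genes described here encode parts of the activated and catalytic spliceosome, its cyclophilins left aside. They were chosen by the complex they belong to, with earlier results of these data known: the members of the Prp19 complex and of the proteins related to it (together called NTC here), the U5 snRNP, and the proteins of the B-act complex, the C complex and the step II reaction. All 36 were found among the 19927 gene rows of the count table, and all 36 passed the filter on low counts (at least 1 read per 1000000 counted, CPM, in 1 library or both), which kept 12524 genes. Messenger RNA was sequenced in Huh7, an established human hepatocellular carcinoma cell line, from 1 culture with a control hairpin (shControl, labelled WT for genotype) and 1 culture with a PPIL1 hairpin (shPPIL1#1 in the title, here shPPIL1). The design asks how knockdown of PPIL1 alters gene expression in these cells. With 1 library per group and 1 hairpin, no test between conditions was possible, no p-value is given, and "higher" or "lower" is a statement about these 2 libraries.

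The spliceosome removes introns in a pair of reactions, branching (step I) and exon ligation (step II). When the precursor complex is activated, the Prp19 complex joins the U2, U5 and U6 snRNPs, and the resulting B-act complex is then carried through the C complex and the step II complex by DEAH-box helicases, each of which drives 1 remodelling step. PPIL1 is a peptidyl-prolyl isomerase that enters with the Prp19-related proteins, binds SNW1 (also called SKIP), and has PRP17, the product of CDC40, as a described substrate.

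The counted reads summed to 41015345 in shControl and 41165401 in shPPIL1. PPIL1 had 1505 reads in shControl and 104 in shPPIL1, so 6.79% of the control level was left (5.52 to 8.29%, exact 95% interval for counting error), in the direction of the labels. All 9 hepatocyte and hepatoma markers (albumin and alpha-fetoprotein among them) were present in both libraries, at 81.3 FPKM (fragments per kilobase of gene and 1000000 reads) or more in shControl. The 4 leukocyte markers summed to 1.65 FPKM and the 4 endothelial markers to 1.58 FPKM there, and the 4 fibroblast markers to 15.6 FPKM, of which LUM gave 13.8 and COL1A2 was at 0. In shPPIL1 these sums were 2.03, 1.34 and 15.8 FPKM. The 9 hepatocyte and hepatoma markers summed to 10895 FPKM in shControl and 11310 FPKM in shPPIL1. By the interval for counting error 7 of the 9 were higher in shPPIL1 and 0 lower, with ratios up to 1.18 (FGB), and their part in the results below was not tested.

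Sequence sites are shown first for 1 motif, because an earlier analysis of these data found the 6 bases GATCAT in the transcripts of several lower genes, and because the member with the lowest ratio, CDC40, carried it most often in its 3' UTR. Sites are in RNA sense, as DNA letters, with the motif in capitals and coordinates of GRCh38 from GENCODE release 29. CDC40, which lies on the plus strand, had 3 sites in its 3' UTR, of which 2 are shown, at chr6:110230145-110230174 and chr6:110232174-110232203.
CDC40, site 1: taaactagctggGATCATttttgatccatt
CDC40, site 2: cctttttaaaaaGATCATatttttaaataa
The other members with a site in the 3' UTR were AQR, with 2 (chr15:34855451-34855480 and chr15:34852371-34852400, minus strand), CDC5L (1 site, sequence not shown), CWC15 (chr11:94963326-94963355, minus strand) and SYF2 (chr1:25222718-25222747, minus strand).
AQR, site 1: atttcccattttGATCATctgctagagtat
AQR, site 2: tcaggagatcgaGATCATccggcccaacat
CWC15: taaaacgtaaagGATCATtctgactttttt
SYF2: cttccatgatctGATCATgtacagttccct
PPIL1 itself had 1 site, in its coding sequence (chr6:36855823-36855852, minus strand), and the site of SLU7, the other member called lower below, was also coding and spanned an exon junction on chromosome 5 between 160408437 and 160408655 (minus strand).
PPIL1: ggacgacgtgaaGATCATtaaggcataccc
SLU7: cagatggaaaaaGATCATaatagtgaagat

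Few of the 36 genes differed by much between the libraries. The ratio of shPPIL1 over shControl, scaled by the TMM library factors of edgeR, was below 1 for 30 genes (83.3%) and above 1 for 6. Over all kept genes 50% were below 1. With library totals in place of TMM factors, 25 of the 36 and 45.8% of all kept genes were below 1. The median log2 ratio of the 36 was -0.08, the middle 50% ran from -0.15 to -0.02, and the median of all kept genes was 0.00 at 2 decimals. A gene is called here where the libraries differed 1.2-fold or more and the exact 95% interval for counting error excluded 1. By that rule 2 of the 36 were lower, CDC40 and SLU7, where 9.41% of all kept genes were called lower. The rule called 1 member higher, BUD13, against 8.4% of all kept genes. Both counts are close to or below these backgrounds (5.56% and 2.78% of the members), and among kept genes with summed reads in the range of the members 7.45% were called lower and 5.17% higher. At 1.5-fold 0 members were called, where 2.16% of all kept genes were lower and 2.02% higher.

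By the interval alone, without a fold, 17 members (47.2%) were lower and 3 (8.33%) higher, where the background was 26.2% lower and 24.9% higher. The interval of the other 16 included 1. Deeper genes have narrower intervals. Among the 8949 kept genes with summed reads within the range of the members, the background was 29.3% lower and 26.8% higher. Of the 17 lower members, 8 differed by under 1.1-fold and 7 by 1.1- to 1.2-fold. The interval covers counting error only, not the difference between cultures, which 1 library per group cannot show. For equal counts it reached 1.14-fold at the depth of the shallowest member (974 reads in both libraries together) and 1.02-fold at that of the deepest (49335).

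**Figure D1:**
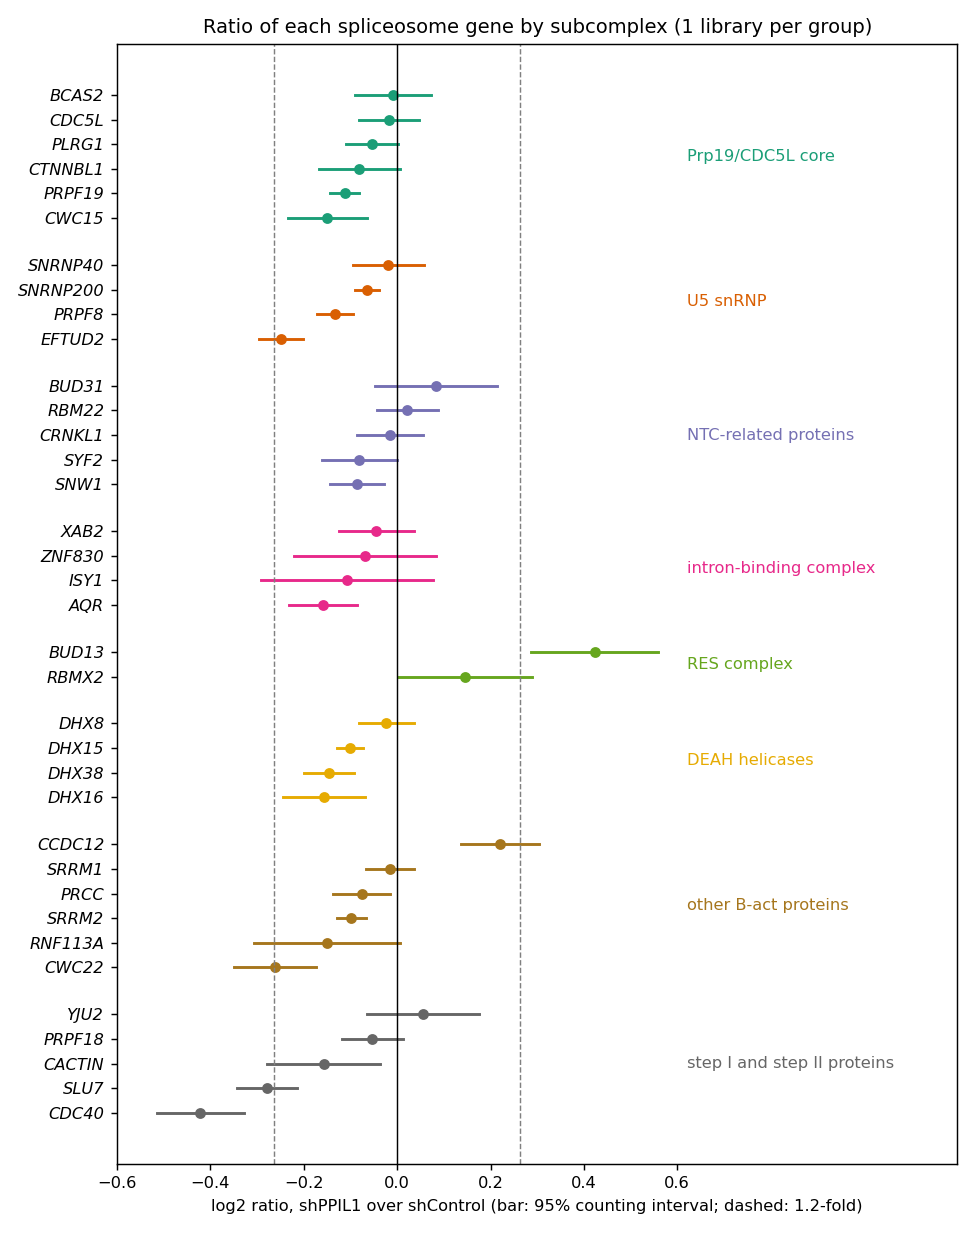
Each point is the log2 ratio (shPPIL1 over shControl, x axis) of 1 of the 36 genes, grouped by subcomplex, and each bar is its exact 95% interval for counting error. Dashed lines mark 1.2-fold. CDC40 and SLU7 lie left of the lower line and BUD13 right of the upper line. Both RES genes lie right of 0.

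The step I and step II proteins held the lowest ratios, with a median log2 ratio of -0.16 over 5 genes. CDC40 encodes PRP17, a WD-repeat protein needed for exon ligation. It had 2191 reads (14.5 FPKM) in shControl and 1664 reads (11.0 FPKM) in shPPIL1. The ratio was 0.747 (0.700 to 0.796), or 1.34-fold lower, the lowest of the 36. SLU7, a zinc-knuckle factor that helps choose the 3' splice site, had 4250 reads (28.0 FPKM) and 3564 reads (23.4 FPKM). Its ratio was 0.825 (0.788 to 0.862), just past the 1.2-fold line. With library totals in place of TMM factors, its log2 ratio of -0.26 no longer reached that line. PRPF18, which works with SLU7 in step II, had 3913 and 3836 reads and a ratio of 0.964 (0.922 to 1.01), an interval above those of CDC40 and SLU7. CACTIN, a C complex protein, had 1156 and 1054 reads, a ratio of 0.897 (0.824 to 0.975). YJU2, which promotes branching, had 1099 and 1162 reads and a ratio of 1.04 (0.957 to 1.13). Of the genes next to CDC40, both had intervals that included 1: WASF1 had a ratio of 0.961 (0.899 to 1.03) and METTL24 1.28 (0.976 to 1.67).

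The RES complex was the only subcomplex here with all its members above 1. This retention and splicing complex binds the B-act spliceosome, and its listed members were BUD13 and RBMX2. The BUD13 gene had 765 reads (7.98 FPKM) in shControl and 1043 reads (10.8 FPKM) in shPPIL1. Its ratio of 1.34 (1.22 to 1.47) was the highest of the 36. RBMX2, an RNA-recognition-motif protein, had 766 reads (10.2 FPKM) and 862 reads (11.5 FPKM), a ratio of 1.11 (1.00 to 1.22). BUD13 lies on chromosome 11 from 116748170 to 116772988 (minus strand). Its neighbours went opposite ways, ZPR1 with a ratio of 0.842 (0.791 to 0.896) and CADM1 with 1.18 (1.01 to 1.37).

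The other B-act proteins, 6 genes, had a median log2 ratio of -0.09 and spread to both sides. CWC22, which recruits the exon junction complex helicase to the spliceosome, had 2260 reads (17.5 FPKM) and 1917 reads (14.8 FPKM). Its ratio was 0.834 (0.784 to 0.887), a 1.199-fold difference that stopped just short of the 1.2-fold line. CCDC12, a small coiled-coil protein, was higher, with 2153 reads (57.8 FPKM) and 2551 reads (68.2 FPKM), a ratio of 1.17 (1.0997 to 1.23). These genes stood on opposite sides within 1 group, and neither was called. SRRM2, a serine- and arginine-rich scaffold of nuclear speckles, was the most read of the 6, with 16966 and 16116 reads, a ratio of 0.934 (0.914 to 0.954). Its relative SRRM1 had 6174 and 6211 reads, a ratio of 0.989 (0.955 to 1.02). PRCC, known as a fusion partner of TFE3 in renal carcinoma, had a ratio of 0.949 (0.909 to 0.990). RNF113A, a RING and zinc finger protein, had 706 and 647 reads and a ratio of 0.901 (0.809 to 1.00). It shares 25.2% of its exon bases with NDUFA1 on the opposite strand. NDUFA1 had a ratio of 1.21 (1.12 to 1.32), and whether the authors' counting used strand is not given in the sources used here.

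All 4 U5 snRNP proteins listed here had ratios below 1, SNRNP40 only with some scalings, and the median log2 ratio was -0.10. EFTUD2, the GTPase of the particle, was the lowest, with 7952 reads (48.1 FPKM) in shControl and 6805 reads (41.0 FPKM) in shPPIL1. Its ratio of 0.841 (0.815 to 0.869), 1.19-fold lower, was the next inside the 1.2-fold line after CWC22. PRPF8, the scaffold that holds the catalytic RNA, had 11291 and 10468 reads, a ratio of 0.912 (0.888 to 0.936). SNRNP200, the helicase that unwinds U4 from U6, had the most reads of the 36, 25004 and 24331, and a ratio of 0.957 (0.940 to 0.974). SNRNP40, a WD-repeat subunit, had 2744 and 2755 reads, and its interval included 1 (ratio 0.987, 0.936 to 1.04). The 4 genes took 0.115% of counted reads in shControl (exact 95% interval 0.114 to 0.116%) and 0.108% (0.107 to 0.109%) in shPPIL1.

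The DEAH helicases, 4 genes, had a median log2 ratio of -0.12 and all stood below 1. DHX16 (PRP2), which starts the catalytic phase, had 2196 and 2003 reads, a ratio of 0.897 (0.844 to 0.953). DHX38 (PRP16), which acts between the steps, had 5823 and 5351 reads, a ratio of 0.904 (0.871 to 0.938). DHX15 (PRP43), which takes the spent spliceosome apart, had 20924 and 19841 reads, a ratio of 0.932 (0.914 to 0.951). DHX8 (PRP22), which releases the ligated message, had 4671 and 4673 reads, and its ratio of 0.984 (0.944 to 1.02) was the only one of the 4 with an interval that included 1.

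The core of the Prp19 complex, 6 genes, had a median log2 ratio of -0.07, and 2 of the 6 had an interval below 1. CWC15 had 2413 and 2213 reads, and its ratio of 0.902 (0.851 to 0.956) was the lowest of the core. PRPF19, the ubiquitin ligase that gives the complex its name, had 17588 reads in shControl and 16548 in shPPIL1, for a ratio of 0.925 (0.906 to 0.945). The other 4 lay between 0.945 (0.890 to 1.00), for the armadillo-repeat protein CTNNBL1, and 0.994 (0.940 to 1.05), for BCAS2. Between them were the WD-repeat protein PLRG1 at 0.964 (0.927 to 1.00) and the MYB-related scaffold CDC5L at 0.988 (0.945 to 1.03). With library totals in place of TMM factors, the sign of the log2 ratio of CDC5L, BCAS2, SNRNP40, CRNKL1 and SRRM1 changed, so no direction can be given for these 5 genes.

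The Prp19-related proteins, the group that PPIL1 binds, were the closest to equal, with a median log2 ratio of -0.02 over 5 genes that turned to 0.00 with library totals. SNW1, the direct partner of PPIL1, had 4907 reads (63.2 FPKM) in shControl and 4700 reads (60.3 FPKM) in shPPIL1. Its ratio was 0.942 (0.905 to 0.980), a difference of under 1.1-fold. SYF2, a small subunit of the same group, had 2536 and 2438 reads, a ratio of 0.945 (0.894 to 0.9997). CRNKL1, a helical-repeat protein, had 3169 and 3189 reads, a ratio of 0.990 (0.942 to 1.04). RBM22, which contacts the catalytic RNA, had 3735 and 3856 reads, a ratio of 1.02 (0.970 to 1.06). BUD31 had 933 and 1005 reads, a ratio of 1.06 (0.968 to 1.16). It shares 46.7% of its exon bases with genes on the opposite strand, PTCD1 and PDAP1.

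The intron-binding complex, 4 genes built around the helicase AQR, had a median log2 ratio of -0.09, and all 4 stood below 1. AQR had 3170 and 2889 reads, a ratio of 0.896 (0.852 to 0.943). XAB2, a helical-repeat protein, had 2538 and 2502 reads, a ratio of 0.969 (0.917 to 1.02). ZNF830, a zinc finger protein, had 719 and 697 reads, a ratio of 0.953 (0.858 to 1.06). ISY1 was the least read of the 36, with 501 and 473 reads, and a ratio of 0.928. Its interval (0.817 to 1.05) included 1 and was the widest among the members with a ratio below 1. Of its exon bases 22.2% are also those of the readthrough gene ISY1-RAB43, a row with 0 reads in both libraries, so its level is uncertain.

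**Figure D2:**
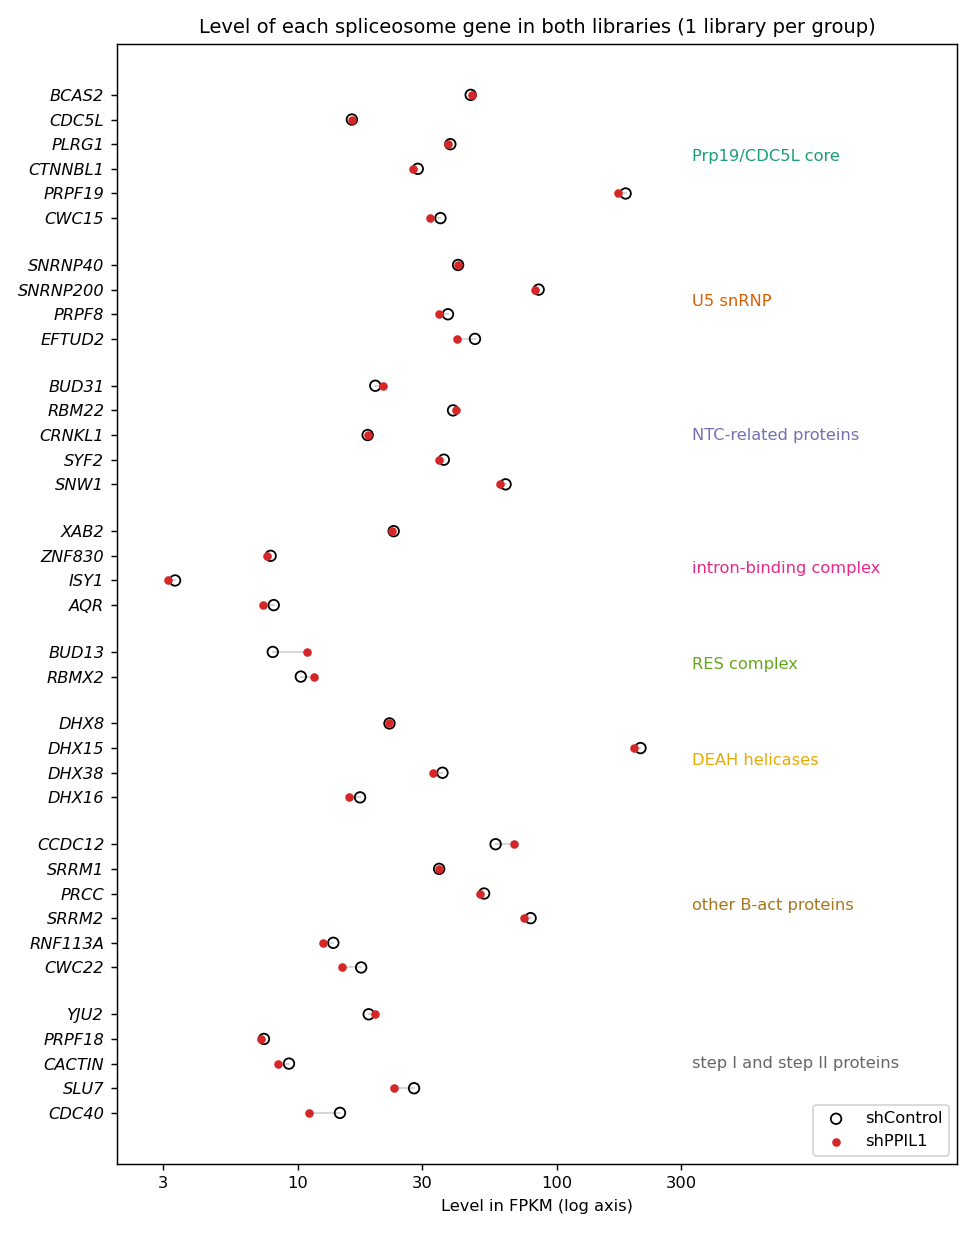
Level of each of the 36 genes in FPKM (log axis) in shControl (open circles) and shPPIL1 (red points), grouped by subcomplex, with a line joining the libraries. The spread between genes, from 3.35 FPKM for ISY1 to 209 for DHX15 in shControl, is far wider than the shift between libraries.

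On the FPKM scale the levels of the 36 genes in shControl ran from 3.35 (ISY1) to 209 (DHX15), with a median of 28.5. In shPPIL1 they ran from 3.15 to 198, with a median of 25.6, in almost the same order (Spearman's rho 0.993 over the 36 genes, a description). In shControl 30 of the 36 lay above the median of kept genes, and in shPPIL1 31. PRPF19 and DHX15 were far above their partners: PRPF19 stood at 183 FPKM where the other 5 core proteins ran from 16.1 to 46.3, and DHX15 at 209 where the other 3 helicases ran from 17.3 to 36.1. PRPF19 is known to be present in several copies per complex, and DHX15 to act outside splicing too. Whether either bears on these RNA levels was not tested. The lowest group was the intron-binding complex, with a median of 7.94 FPKM.

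These levels depend on the gene length behind them. The length implied by the authors' count and FPKM differed by over 1.5 times from the longest coding transcript of GENCODE for 3 members. For PRPF18 it was 12925 bases against 1717, so its 7.38 FPKM in shControl would be 55.6 per GENCODE length. ISY1 went from 3.35 to 7.17 in the same way, and SRRM2 from 78.9 down to 44.2. The ratio between libraries does not use the length. PRPF18 also shares 48.5% of its exon bases with other GENCODE genes, the most of the 36, and 42.0% with a protein-coding gene on the same strand that has no row in the table. Whose reads its count, level and ratio rest on is therefore uncertain.

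Together the 36 genes took 0.447% of counted reads in shControl (0.445 to 0.449%) and 0.426% (0.424 to 0.428%) in shPPIL1. The step I and step II genes went from 0.0307% (0.0302 to 0.0313%) to 0.0274% (0.0269 to 0.0279%), and the RES genes from 0.00373% (0.00355 to 0.00392%) to 0.00463% (0.00442 to 0.00484%). Fewer messages per cell and fewer cells of a kind cannot be told apart in such bulk libraries.

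**Figure D3:**
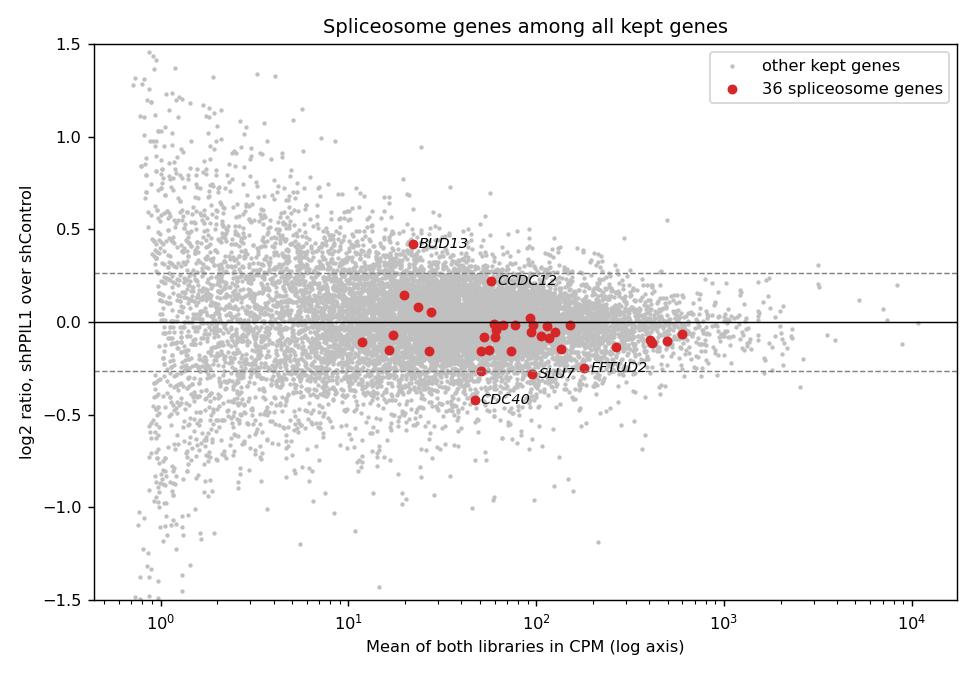
Log2 ratio (shPPIL1 over shControl, y axis) against the mean of both libraries in CPM (log x axis) for the 36 genes (red) and the other kept genes (grey). Dashed lines mark 1.2-fold, and 40 kept genes lie outside the range of 1.5 in either direction. The 36 sit inside the cloud, 30 of them under 0 (25 with library totals).

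The ratios of genes with and without GATCAT are a description only. The motif was taken up because it had been found in lower genes of these same libraries, so a lower median of its carriers restates that choice and supports nothing. The 5 members with GATCAT in the 3' UTR had a median log2 ratio of -0.15, and 5 of the 5 were below 0, from -0.42 (CDC40) to -0.02 (CDC5L, the sign of which changed with the scaling). The 13 with the motif only in the coding sequence had a median of -0.10, PRPF8 with 6 sites and SNRNP200 with 3 included. They ran from -0.28 (SLU7) to 0.15 (RBMX2, which has 1 coding site and an interval above 1), so carriers stood on both sides. The 18 with neither had a median of -0.04, BUD13, CCDC12 and CWC22 among them. Over kept genes with a coding transcript, PPIL1 left out, the medians were -0.03, -0.02 and 0.02. Carriers are common: 23.5% of those genes had the motif in the 3' UTR, against 13.9% of the members. More sites in the 3' UTR did not go with a lower median over all genes, which was -0.03 at 1 site, -0.04 at 2 and -0.03 at 3 or more. The part of the motif in the ratios of CDC40 or the others was not tested.

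The members above 1 had fairly short transcripts, as did other members below 1. All 6 members with a ratio above 1 had a longest coding transcript of 1017 to 2342 bases, and all 18 members with longer transcripts were below 1 (CDC5L, CRNKL1 and SRRM1 among them, which change sign with library totals). Spearman's rho between log2 ratio and transcript length was -0.42 over the 36 genes, and -0.40 with the number of exons. Over 12385 kept genes these were 0.01 and -0.01. Long SNRNP200 (7165 bases) and DHX8 (5558 bases) had ratios of 0.957 and 0.984, and short CWC15 (1576 bases) had 0.902. With GC content of the transcript rho was 0.06 over the 36. Gene counts hold no reads of single introns or junctions, so splicing of these transcripts was not measured.

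**Figure D4:**
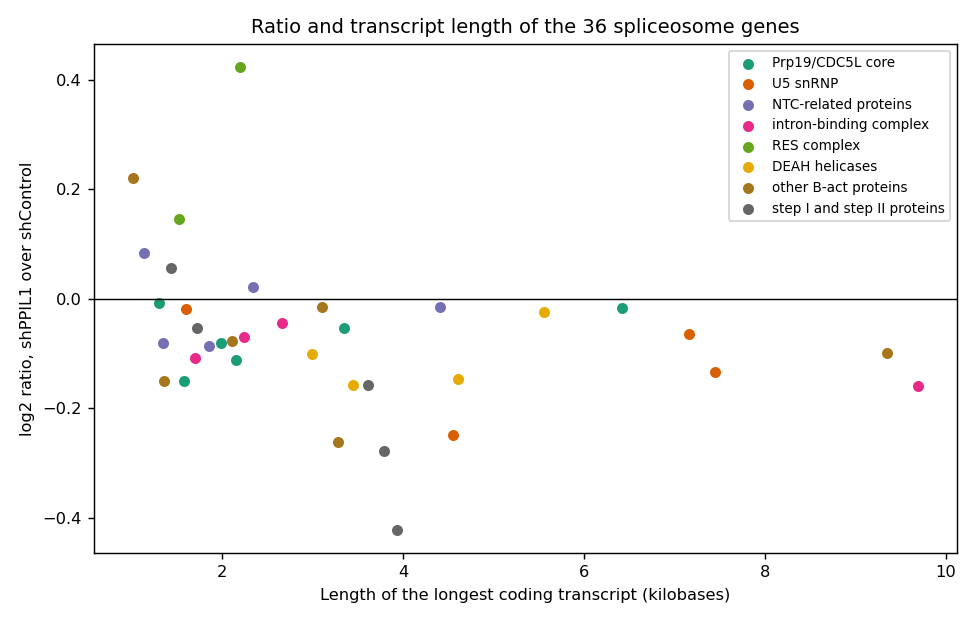
Log2 ratio (shPPIL1 over shControl, y axis) of each of the 36 genes against the length of its longest coding transcript in kilobases (x axis), coloured by subcomplex. The points above 0 are all at the short end, with none beyond 2342 bases.

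The promoters were searched for a pair of motifs that the choice of genes did not use, a search added after values were seen. The 7 bases CCGGAAG, on either strand, form a core that ETS-family factors such as GABPA are known to bind. They stood in 17 of the 36 promoter windows of RefSeq (GRCh38.p14, 250 bases before to 50 after the start), or 47.2%, against 19.2% of 10260 windows of kept genes. The E-box CACGTG, bound by MYC among others, stood in 1 of the 36 (EFTUD2), against 10.1%. The background windows were not matched for level, and 30 of the 36 members lay above the median FPKM of kept genes in shControl. Whether other genes at such levels carry the motifs as often was not tested. The 17 genes with CCGGAAG had a median log2 ratio of -0.06 and the other 19 one of -0.08, so carriers and others differed little in ratio. A match is a description of letters and not a bound site. SLU7 and BUD13 carried it and went opposite ways, and CDC40 did not carry it. The windows of SLU7 and BUD13 are printed 5' to 3' on the strand of the gene, with each match in capitals (CTTCCGG is the same motif on the other strand). SLU7 is at chr5:160419032-160419331 and BUD13 at chr11:116772938-116773237, both on the minus strand. In GENCODE the SLU7 gene starts further upstream, at 160421711, so its RefSeq window lies inside that gene. The BUD13 window spans the GENCODE start at 116772988.
SLU7: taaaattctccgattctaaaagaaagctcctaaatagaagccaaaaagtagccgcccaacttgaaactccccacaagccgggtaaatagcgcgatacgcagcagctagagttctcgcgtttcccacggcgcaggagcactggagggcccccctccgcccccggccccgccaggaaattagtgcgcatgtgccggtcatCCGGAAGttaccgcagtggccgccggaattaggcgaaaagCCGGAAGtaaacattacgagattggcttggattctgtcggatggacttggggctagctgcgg
BUD13: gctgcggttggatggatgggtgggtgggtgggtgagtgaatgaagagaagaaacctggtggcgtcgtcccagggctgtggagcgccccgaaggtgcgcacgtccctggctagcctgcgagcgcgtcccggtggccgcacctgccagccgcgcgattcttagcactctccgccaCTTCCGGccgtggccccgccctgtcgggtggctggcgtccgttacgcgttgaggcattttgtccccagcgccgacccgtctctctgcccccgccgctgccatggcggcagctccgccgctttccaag

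Other splicing lists gave the following counts, to be read against 9.41% of all kept genes called lower and 8.4% called higher. A list of 23 further B-act, C, late and disassembly proteins had a median log2 ratio of -0.01, with 0 called in either direction, 3 lower and 5 higher by the interval alone. In it DHX35 had a ratio of 0.837 (0.744 to 0.941) and CWC25, the step I partner of YJU2, 1.15 (1.05 to 1.26). The 40 Sm, U1, U2 and tri-snRNP proteins had a median of -0.05, with 2 (5%) called lower and 0 higher: USP39 at 0.748 (0.714 to 0.783) and SF3B5 at 0.781 (0.724 to 0.843). The 32 kept of 33 SR proteins and hnRNPs had a median of -0.07, with 4 (12.5%) called lower and 0 higher, among them SRSF7 at 0.780 (0.752 to 0.809) and TRA2B at 0.792 (0.768 to 0.816). The 8 spliceosomal cyclophilins other than PPIL1 had a median of -0.08, with PPWD1 at 0.714 (0.665 to 0.767) and PPIG at 0.774 (0.744 to 0.805) called lower (25%) and 0 called higher. The share of genes below 1 was 83.3% for the 36, 52.2% for the further proteins, 67.5% for the snRNP proteins, 87.5% for the SR proteins and hnRNPs, 75% for the cyclophilins and 50% for all kept genes. No test of these differences was possible.

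**Figure D5:**
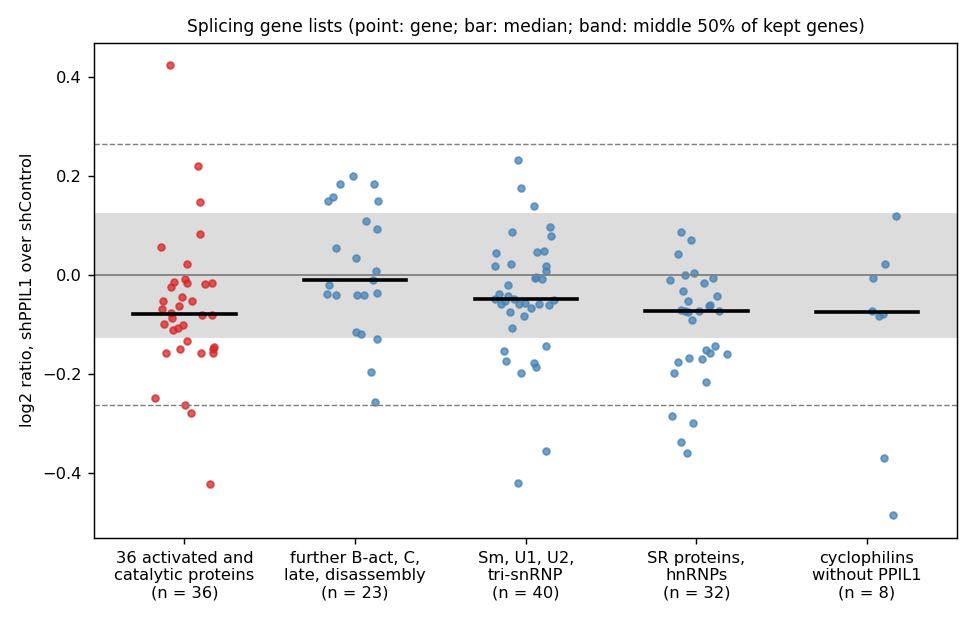
Log2 ratio (shPPIL1 over shControl, y axis) of each gene (points) in 5 splicing lists, with the list median (bar), the middle 50% of all kept genes (grey band, -0.13 to 0.12) and 1.2-fold (dashed). The medians of all 5 lists lie within the band, from -0.08 to -0.01.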

How the data were processed

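Polyadenylated RNA of 2 Huh7 cultures was fragmented, and cDNA libraries with adaptors were amplified by PCR, per the labels' protocols. The submitters' processing notes name build hg38. Which aligner, counter, annotation and strand setting were used is not stated there. Raw counts and FPKM values per gene were deposited by the authors. Another 7 count columns match no label and were not used.

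Counts were scaled with TMM factors (edgeR 4.0.16, R 4.3.3; 0.993 for shControl and 1.01 for shPPIL1). Ratios are shPPIL1 over shControl with exact Clopper-Pearson 95% intervals. Intervals cover counting error only, because each group has 1 library. They treat reads as independent, which PCR copies of 1 molecule are not, so they can be too narrow even for counting error. The interval step was tested on simulated data with independent counts, the model it assumes. That test cannot show how well the intervals hold for real reads or between cultures. Alternatives tried were DESeq2 1.42.0 size factors, library totals, upper-quartile factors, other filters, folds and levels, and log2(FPKM + 1) or log2(FPKM + 0.1).

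The members, lists, motif and the 1.2-fold rule were chosen with earlier results of these data known. All 36 members are described; other lists name their called genes with the most extreme interval bounds (up to 2), and DHX35, CWC25, the neighbours and the promoter motifs were added after values were seen. GENCODE release 29 matched 19211 of 19927 rows. A few items are not reported here.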

Additional observations from a re-analysis of the deposited data

How the results depend on the processing

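The number of members called depends on the fold asked. At 1.1-fold 9 were lower and 3 higher (18.8% and 17.6% of all kept genes), at 1.5-fold 0 and 0 (2.16% and 2.02%), and by the interval alone 17 and 3. With library totals 1 member was called lower: SLU7 missed the line there (log2 ratio -0.26) and with log2(FPKM + 1) (-0.25). With DESeq2 size factors, upper-quartile factors, a 99% interval, no filter or a filter at 5 CPM the counts were 2 lower and 1 higher. CDC40 ran from -0.42 to -0.37 and BUD13 from 0.40 to 0.44 over the scalings and log2(FPKM + 1). The median of the 36 ran from -0.08 to -0.04, the latter without the 18 members with GATCAT in either the coding sequence or the 3' UTR. It was -0.07 without the 10 members whose exons overlap another gene of the table. Medians of the subcomplexes kept their sign under each scaling, filter and FPKM setting and as a mean, except that of the Prp19-related proteins (-0.02 to 0.00). Leaving out a library was not possible with 1 per group. No paired analysis was possible because each group has 1 library.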
